A study of Homo sapiens with 8 samples.

Results

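The regions described here are the accessible regions of the zinc finger gene clusters at 19q13.4, near the end of the long arm of human chromosome 19. They are the merged peaks with at least 1 bp in a fixed window of 6.3 Mb (hg38), a choice made by position and not by any measured value. The first of them began at 51799088 and the last ended at 58098740. Of 129052 merged peaks over the 4 conditions, 364 lay in this window and 4194 on the rest of chromosome 19.

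ATAC-seq, an assay that tags open chromatin by transposase insertion, was applied to U2OS, a human osteosarcoma cell line. The 4 conditions were siOrc6 with 5 mM H2O2 for 30 min, control siRNA siGl3 with the same H2O2, siOrc6 untreated and siGl3 untreated. Orc6 is a subunit of the complex that marks replication origins, and H2O2 is an oxidant that damages DNA. All cells carried their siRNA for 72 h and were synchronised by double thymidine block with a 3 h release. This release was meant to place every group in early S phase, and no value used here measures the stage reached. Each condition had 2 libraries, 1 in each of 2 batches, and the labels do not say whether these came from separate cultures. One peak list stood for both libraries of a condition. In such bulk samples, fewer cells with an open site and less signal per cell cannot be told apart.

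Zinc finger genes of the KRAB class encode repressors that read DNA through arrays of fingers and, through the co-repressor TRIM28, silence transposable elements and some genes. They multiplied by tandem duplication, so that neighbours share much of their sequence, and many are transcribed from promoters rich in CpG. The window also holds the leukocyte receptor genes, the NLRP genes of innate immunity, the imprinted gene PEG3 and a large placental miRNA cluster.

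The promoters of 5 zinc finger genes show the range of sites. ZNF749, ZNF134 and ZNF587 had starts that the authors called more accessible in untreated siOrc6 cells, while ZNF154 and ZNF677 had no peak in any list. Each line gives the 250 bases before the listed start, 5′ to 3′, from RefSeq (GRCh38.p14, the build called hg38). Capitals mark TNCATTNCC and CCGGAA, on either strand, 2 sets of letters that recur in these promoters.

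ZNF749 (chr19:57435075-57435324, plus strand): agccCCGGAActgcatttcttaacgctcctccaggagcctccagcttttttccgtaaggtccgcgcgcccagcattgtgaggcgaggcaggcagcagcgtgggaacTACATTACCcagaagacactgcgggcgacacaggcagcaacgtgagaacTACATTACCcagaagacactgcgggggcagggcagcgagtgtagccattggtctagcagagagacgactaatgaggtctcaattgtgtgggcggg

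ZNF134 (chr19:57613992-57614241, plus strand): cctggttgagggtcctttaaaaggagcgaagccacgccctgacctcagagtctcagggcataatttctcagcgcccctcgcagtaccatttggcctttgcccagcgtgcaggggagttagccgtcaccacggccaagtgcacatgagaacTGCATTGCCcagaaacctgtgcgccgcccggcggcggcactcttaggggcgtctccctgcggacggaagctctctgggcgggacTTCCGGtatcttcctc

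ZNF587 (chr19:57849609-57849858, plus strand): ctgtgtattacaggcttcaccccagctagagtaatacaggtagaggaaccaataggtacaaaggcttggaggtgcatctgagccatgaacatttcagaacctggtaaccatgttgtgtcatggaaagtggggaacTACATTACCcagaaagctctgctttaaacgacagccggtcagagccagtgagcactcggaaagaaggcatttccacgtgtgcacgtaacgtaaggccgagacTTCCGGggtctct

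ZNF154 (chr19:57709205-57709454, minus strand): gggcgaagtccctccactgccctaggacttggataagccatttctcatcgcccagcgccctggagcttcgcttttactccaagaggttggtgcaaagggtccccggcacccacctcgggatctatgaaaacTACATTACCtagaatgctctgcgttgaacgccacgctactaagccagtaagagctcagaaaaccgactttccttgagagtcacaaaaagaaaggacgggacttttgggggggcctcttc

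ZNF677 (chr19:53254824-53255073, minus strand): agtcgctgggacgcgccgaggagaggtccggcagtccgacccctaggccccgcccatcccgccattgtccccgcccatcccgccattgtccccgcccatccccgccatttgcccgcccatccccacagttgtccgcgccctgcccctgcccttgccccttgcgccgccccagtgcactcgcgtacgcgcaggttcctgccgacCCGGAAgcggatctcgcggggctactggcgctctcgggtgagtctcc

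The first 3 stretches lay wholly inside merged peaks. They held 15, 17 and 8 CpG, against 11 CpG in ZNF154 and 28 CpG in ZNF677, so the promoters with and without a peak overlapped in CpG. The TNCATTNCC letters stood before the starts of ZNF749 (2 matches), ZNF134, ZNF587 and ZNF154 (1 match each).

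Zinc finger genes with a listed start had a peak there in every condition or in none. Coding genes touching the window numbered 208, of which 99 were zinc finger genes by symbol, and 169 had a listed start. Whether each of the 99 encodes a KRAB domain was not checked. Of the 82 zinc finger genes with a listed start, 73 (89.0%) had a peak within 1 kb of it in all 4 lists, and the other 9 had none in any list. ZNF816-ZNF321P shares its start with ZNF816, and ZNF765-ZNF761 with ZNF765. Each is counted as a gene of its own here and among promoters. Over all coding genes with a listed start the share in all 4 lists was 68.3% (10805 of 15812). For zinc finger genes outside the window it was 86.4% (374 of 433), and for those elsewhere on chromosome 19 it was 80.5% (120 of 149). High coverage of starts was thus shared with zinc finger genes in other places.

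The 9 starts with no peak were those of ZNF880, ZNF534, ZNF578, ZNF677, ZSCAN5B, ZSCAN4, ZNF154, ZNF587B and ZNF418. ZSCAN4 is known for its burst in early embryonic cells. Their nearest merged peak was between 4079 bp (ZSCAN4) and 57592 bp (ZNF677) away. For the 17 zinc finger genes without a listed start, either annotated end was used, and 11 had a peak there in all 4 lists. ZIM3, a strong KRAB repressor whose domain is used in CRISPR interference, was among 5 with none. ZNF28 was the 1 gene with a peak in some lists only. It ranked at the 11.9 percentile in siOrc6 with H2O2, the 8.23 in siGl3 with H2O2 and the 24.3 in untreated siOrc6, and it was not listed in untreated siGl3.

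**Figure D1:**
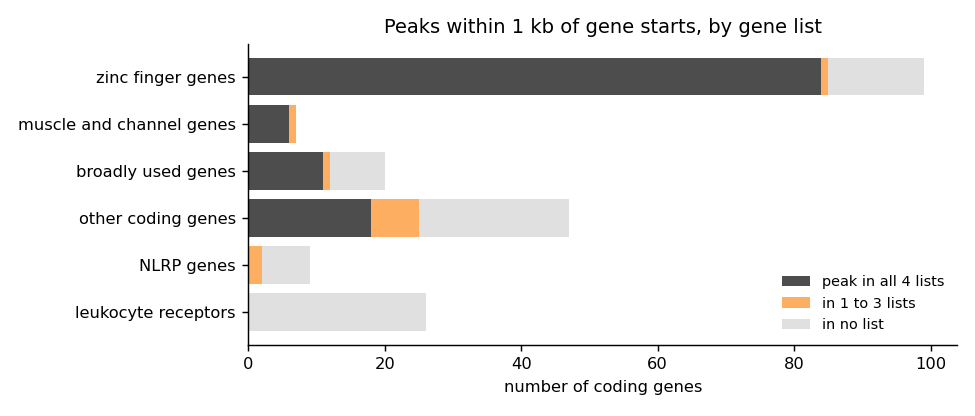
Number of coding genes of the window (x axis) in each gene list (y axis), split by whether a peak lay within 1 kb of the listed start, or of either end where no start is listed, in all 4 lists, in 1 to 3 lists or in none. Of 99 zinc finger genes 84 had a peak in all 4 lists, while none of 26 leukocyte receptor genes had a peak in any.

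The 300 bases around the first listed start (250 before, 50 after) were searched for letters on both strands. CCGGAA, the core read by ETS factors, occurred in 51 of 73 zinc finger promoters with peaks (69.9%) and in 6 of 9 without. The share was 13.8% among 87 other coding genes of the window, 45.7% among 433 zinc finger genes elsewhere and 22.8% over all coding genes. TNCATTNCC, chosen after these promoters had been read, occurred in 15 of 73 promoters with peaks (20.5%) and in 4 of 9 without. It was found in 10.9% of zinc finger promoters elsewhere, in 4.60% of the 87 other coding promoters of the window and in 4.22% of all coding promoters. No zinc finger promoter of the window held overlapping matches of both. Both sets of letters were frequent in this family here whether or not a peak was listed.

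The other searched letters were GGGCGG (56 of 73 promoters with peaks, 58.5% of all coding promoters), CCAAT (36 of 73, 36.3% of all) and TATAAA (1 of 73, 9.64% of all). ACTACAA occurred in 4 of the 73 (3.15% of all), AAGATGGCG in 3 (2.74% of all) and TGACGTCA in 2 (2.59% of all). The median CpG count was 24 in the 73 promoters with peaks and 14 in the 9 without, with ranges of 11 to 42 and 2 to 34 that overlapped.

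Merged peaks at zinc finger starts numbered 77, and 75 of them were in all 4 lists. The remaining 2 were weak, a site by ZNF525 in untreated siOrc6 only and a second site by ZNF587 in siOrc6 with H2O2 only. Peak signal is the authors' own value for each peak and is used here only as a percentile within its list, since lists of different length give no change by rank. The median percentile at zinc finger starts was 84.0 in siOrc6 with H2O2, 83.1 in siGl3 with H2O2, 82.1 in untreated siOrc6 and 80.5 in untreated siGl3. Zinc finger starts therefore sat in the upper part of every list, as gene starts did in general. Over all zinc finger starts, in the window or not, the medians were 86.9, 86.3, 86.2 and 85.8 in that order. Over all merged peaks at other coding starts they were 86.9, 87.1, 86.0 and 85.1. The medians of the window were below both in every list. Among listed zinc finger starts, the one shared by ZNF580 and ZNF581 had the highest mean percentile over the 4 lists. It ranked at 99.7 in siOrc6 with H2O2, 99.6 in siGl3 with H2O2, 99.6 in untreated siOrc6 and 96.6 in untreated siGl3. Its peak region spanned 4494 bp (55640343 to 55644836). In untreated siGl3 ZNF865 and ZNF667 both ranked at 99.1. ZNF160 ranked between 92.7 and 94.1 in the 4 lists. ZNF331, an imprinted gene with several promoters, had 3 merged peaks at starts, and the one at 53520383 to 53521644 ranked between 92.7 and 94.3.

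Weak peaks at starts also occurred in all 4 lists. The peak over the start of ZNF814 ranked at 43.3 in siOrc6 with H2O2, 11.9 in siGl3 with H2O2, 31.3 in untreated siOrc6 and 4.71 in untreated siGl3. At ZNF616 a side peak 918 bp from the start ranked at 33.0 in siOrc6 with H2O2, 31.0 in siGl3 with H2O2, 11.4 in untreated siOrc6 and 12.2 in untreated siGl3, while the peak over the start itself ranked between 86.0 and 86.6. ZNF616 and ZNF814 were chosen after their values were seen.

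**Figure D2:**
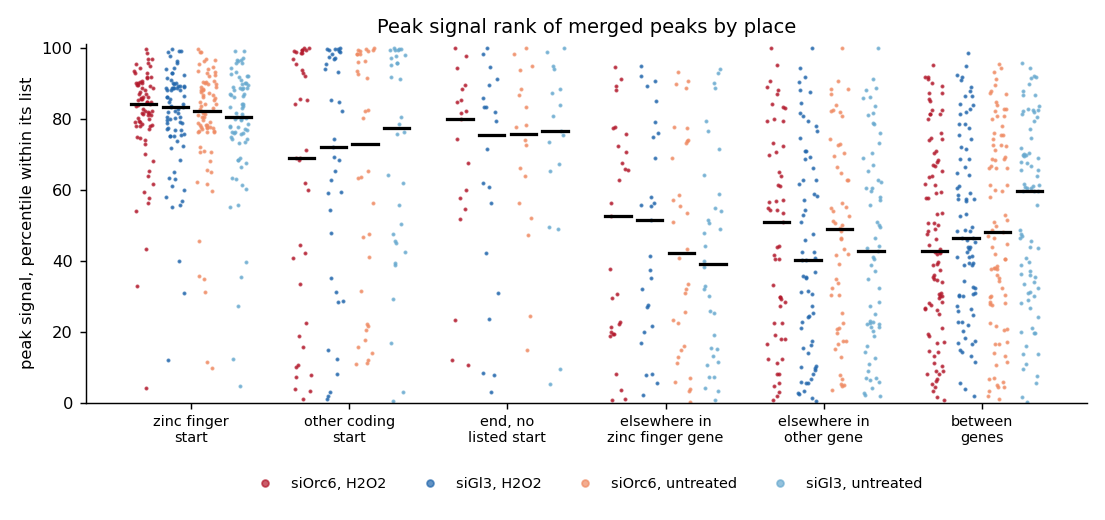
Percentile of peak signal within its own list (y axis) of each merged peak, by its place (x axis) and condition (colour); black bars are medians. Peaks at zinc finger starts have medians between 80.5 and 84.0 in the 4 lists, against 39.0 to 52.5 elsewhere in zinc finger genes.

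Peaks at zinc finger starts were usually wider in siOrc6. Without H2O2, 58 of 75 starts shared by both lists (77.3%) were wider in siOrc6 than in siGl3, and with H2O2 59 of 75 (78.7%) were. Over all merged peaks the shares were 53.9% and 55.2%. At all coding starts, however, they were 74.2% and 72.9%, and at zinc finger starts elsewhere 74.0% and 78.1%. The share was thus not particular to zinc finger starts of this window. At the window's other coding starts it was lower, 19 of 30 (63.3%) untreated and 17 of 35 (48.6%) with H2O2. The median ratio of widths at the window's zinc finger starts was 1.05 untreated and 1.08 with H2O2. Fewer than 50% were wider with H2O2: 31 of 75 starts (41.3%) were wider with H2O2 than without it in siOrc6, and 28 of 75 (37.3%) in siGl3, against 32.9% and 32.6% over all merged peaks. At all coding starts these shares were 42.7% in siOrc6 and 44.0% in siGl3. At zinc finger starts elsewhere they were 40.7% in siOrc6 and 38.8% in siGl3, so the zinc finger shares were not particular to this window. The window's other coding starts went the other way. There 22 of 31 (71.0%) were wider with H2O2 in siOrc6 and 21 of 29 (72.4%) in siGl3.

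Few far ends of zinc finger genes had a listed peak. Of 68 zinc finger 3′ ends more than 3 kb from any coding start, 3 (4.41%) had a peak within 1 kb in any list. The share was 11.5% for 61 such ends of other coding genes of the window and 9.41% for 393 of zinc finger genes elsewhere. It was 14.7% for 12522 ends of all coding genes, so most far ends of any kind had no listed peak. In many cell types these ends carry the repressive histone mark that the KRAB proteins themselves recruit, which was not measured here. Inside zinc finger genes but away from starts, 40 merged peaks had median percentiles of 52.5 in siOrc6 with H2O2, 51.4 in siGl3 with H2O2, 42.0 in untreated siOrc6 and 39.0 in untreated siGl3.

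Across the whole window, 253 of 364 merged peaks (69.5%) were in all 4 lists, against 62.1% of all merged peaks and 65.5% on the rest of chromosome 19. A further 28 were in 3 lists (9.95% of all merged peaks were), 39 in 2 lists (12.2%) and 44 in 1 list (15.8%). Peaks in the window numbered 317 in siOrc6 with H2O2, 311 in siGl3 with H2O2, 318 in untreated siOrc6 and 317 in untreated siGl3. Their median widths were 636, 600, 646.5 and 642 bp in that order, against 468, 453, 485 and 471 bp for all peaks of the same lists. The numbers were nearly level here, while the whole lists held 97816 peaks in siOrc6 with H2O2, 103674 in siGl3 with H2O2, 109304 in untreated siOrc6 and 115292 in untreated siGl3. The rest of chromosome 19 was also nearly level between treatments, with 3506 peaks with H2O2 and 3477 untreated in siOrc6, and 3673 with H2O2 and 3656 untreated in siGl3. Peaks in 1 to 3 lists were weak, at median percentiles between 11.9 and 15.7, whereas those in all 4 lists had medians between 72.8 and 74.2.

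Density followed the gene clusters unevenly. The window held 57.8 merged peaks per Mb, against 80.6 on the rest of chromosome 19 and 43.7 over chromosomes 1 to 22 and X. The first 1.8 Mb of the window (40 zinc finger genes) held 37.2 per Mb, the middle 2.4 Mb (7 zinc finger genes) 75.4 and the last 2.1 Mb (52 zinc finger genes) 55.2. The zinc finger blocks were thus the sparser ones.

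**Figure D3:**
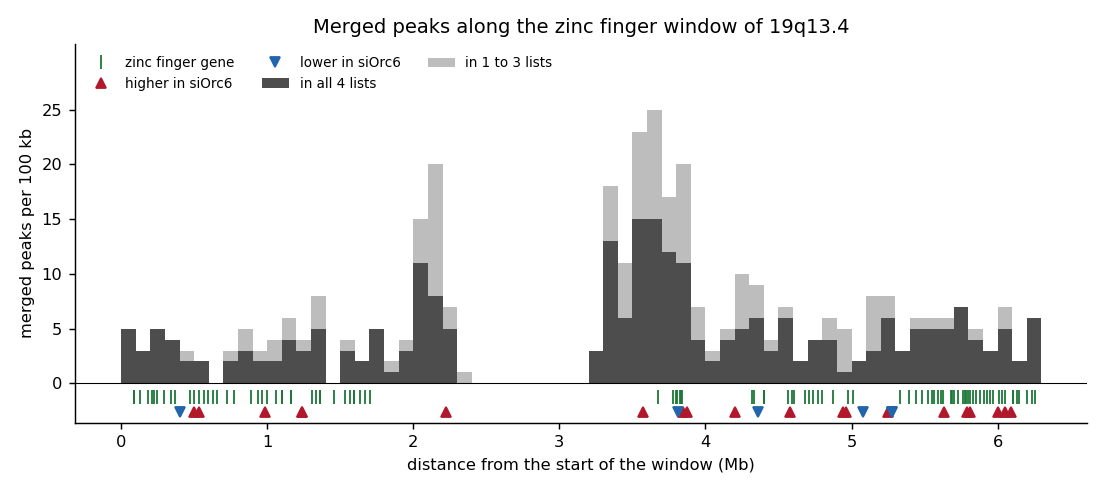
Merged peaks per 100 kb (y axis) against distance from the start of the window in Mb (x axis), dark for those in all 4 lists and pale for the rest; green ticks are zinc finger genes and triangles are merged peaks at regions called higher (up) or lower (down) in siOrc6. Peaks crowd between the zinc finger blocks, and a stretch of 954.162 kb in the middle holds none.

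The authors' lists of changed regions touched 26 of the 364 merged peaks, where 12.4% of all merged peaks were touched. Without H2O2, 18 (4.95%) overlapped a region called higher in siOrc6 than in siGl3, against 6.85% of all merged peaks. Regions called lower touched 6 (1.65%), against 4.74% of all. With H2O2, 6 (1.65%) overlapped a region called higher, against 0.945% of all, and 0 overlapped one called lower, against 1.19% of all. In the authors' deposited lists, 5 regions lay under the 6 lower peaks and 5 under the 6 peaks higher with H2O2. Higher calls thus outnumbered lower ones in both treatments, and the shares without H2O2 lay below those over all merged peaks. The rest of chromosome 19 had the same order. There 5.84% of merged peaks were called higher and 3.31% lower without H2O2, and 1.17% higher and 0.548% lower with H2O2.

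At zinc finger starts the authors called 4 of 82 genes higher without H2O2 (4.88%), against 6.93% of zinc finger starts elsewhere and 6.50% of all coding starts. None was called lower or changed with H2O2. At the start of ZNF749 (57434622 to 57436042) the percentile was 91.6 in siOrc6 with H2O2, 89.8 in siGl3 with H2O2, 93.1 in untreated siOrc6 and 90.1 in untreated siGl3. The peak there was 1410 bp wide in untreated siOrc6 and 1212 bp in untreated siGl3. It ranked high in every list.

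At ZNF134 (57613939 to 57614718) the percentile was 73.9 in siOrc6 with H2O2, 63.1 in siGl3 with H2O2, 71.0 in untreated siOrc6 and 63.1 in untreated siGl3. Widths were 679 bp in untreated siOrc6 and 602 bp in untreated siGl3. At ZNF587 (57849466 to 57850486) it was 68.2 in siOrc6 with H2O2, 55.0 in siGl3 with H2O2, 76.5 in untreated siOrc6 and 67.6 in untreated siGl3. The fourth gene, ZSCAN18, crosses the edge of the window, and its start, outside it, ranked between 85.8 and 87.0 in the 4 lists.

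Of the 4 zinc finger starts called higher, those of ZNF749, ZNF134 and ZNF587 carried TNCATTNCC and that of ZSCAN18 did not. Among the 69 zinc finger starts of the window with peaks in all 4 lists and no call, 12 carried it (17.4%). The promoters of ZNF749, ZNF134 and ZNF587 were among those in which the letters had been noticed. Elsewhere the letters were in 3 of 28 zinc finger starts called higher (10.7%) and in 40 of 346 not called (11.6%). Over all coding starts with peaks in all 4 lists the shares were 4.83% of 974 called higher and 3.92% of 9831 not called. The difference seen at the 4 called starts of the window was thus not present among zinc finger starts elsewhere.

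A distal site at 57047194 to 57048018 lay between coding genes and 71069 bp from the start of USP29. It was 807 bp wide in siOrc6 with H2O2 and 825 bp wide in untreated siOrc6, at percentiles of 73.8 and 75.8, and it was in neither siGl3 list. The authors called it higher in siOrc6 in both treatments. Of the 8 merged peaks listed in both siOrc6 conditions and in no siGl3 condition (2.2%, against 1.53% of all merged peaks), the other 7 ranked between 0.744 and 26.5 with H2O2 and between 1.96 and 25.1 without it. Beyond it, a peak at 57056920 to 57057404 was in all 4 lists, at percentiles between 58.0 and 65.6.

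Close by, a pair of peaks was called lower in untreated siOrc6. The site at 57074803 to 57075625 was in both siGl3 lists, at the 43.4 percentile with H2O2 and 55.7 untreated, and in neither siOrc6 list. Its neighbour at 57075824 to 57076603 ranked at 1.66 in siOrc6 with H2O2, 38.6 in siGl3 with H2O2, 37.5 in untreated siOrc6 and 47.0 in untreated siGl3. One called region covered both. Merged peaks listed in both siGl3 conditions only numbered 7 (1.92%, against 3.62% of all).

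Higher calls in both treatments were found at 4 merged peaks (1.10%, against 0.669% of all). Beside the distal site near USP29 these lay in ZIK1, near ZNF552 and in ZNF814, all zinc finger genes of the last 2.1 Mb. The ZIK1 site (57587377 to 57588123, 3232 bp from the start) ranked at 65.5 in siOrc6 with H2O2, 37.4 in siGl3 with H2O2, 68.8 in untreated siOrc6 and 51.5 in untreated siGl3. The start of ZIK1 itself was not called and ranked between 60.2 and 65.5. The site near ZNF552 (57803530 to 57804468) ranked at 68.2 in siOrc6 with H2O2, 27.2 in siGl3 with H2O2, 75.4 in untreated siOrc6 and 61.0 in untreated siGl3. The site in ZNF814 (57890534 to 57891538) ranked at 65.7 in siOrc6 with H2O2, 73.0 in untreated siOrc6 and 38.2 in untreated siGl3, and was not listed in siGl3 with H2O2. These sites were named because of their calls, so their ranks describe them and add nothing to the calls.

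A region called higher with H2O2 only covered 2 merged peaks between genes, at 53037258 to 53037613 and 53037779 to 53038065, near the endogenous retroviral envelope genes ERVV-1 and ERVV-2. The first was in both siOrc6 lists only, at 26.1 with H2O2 and 4.43 without. The second ranked at 50.7 in siOrc6 with H2O2, 41.1 in siGl3 with H2O2, 35.2 in untreated siOrc6 and 28.9 in untreated siGl3.

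Other zinc finger sites called higher without H2O2 lay at an end of ZNF480 and inside ZNF610 and ZNF600. The ZNF480 site (52297109 to 52297761) ranked at 51.85 in siOrc6 with H2O2, 7.91 in siGl3 with H2O2, 56.1 in untreated siOrc6 and 9.56 in untreated siGl3. ZNF610 ranked at 58.6 in untreated siOrc6 and 44.0 in untreated siGl3, and ZNF600 at 77.7 in untreated siOrc6 and 64.2 in untreated siGl3.

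Among other genes, the starts of CCDC106 and EPN1, an endocytosis adaptor, were called higher without H2O2. CCDC106 ranked at 68.9 in siOrc6 with H2O2, 72.1 in siGl3 with H2O2, 63.5 in untreated siOrc6 and 29.3 in untreated siGl3. EPN1 ranked at 82.5 in untreated siOrc6 and 78.6 in untreated siGl3. A site 1762 bp from the start of IL11, a cytokine gene, was called higher but ranked at 82.1 in untreated siOrc6 and 87.9 in untreated siGl3. It was 2079 bp wide in untreated siOrc6 and 1862 bp in untreated siGl3.

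Of the 18 merged peaks called higher without H2O2, 7 lay between coding genes, 4 elsewhere in zinc finger genes, 1 elsewhere in another coding gene and 1 at an end of a gene with no listed start. Those not yet described were at 54022766 to 54023024 (both siOrc6 lists only), in NLRP5, at 56377079 to 56377992, at 56740496 to 56740909 and at 56765177 to 56765796. In the last of these the percentile was 38.5 in untreated siOrc6 and 10.7 in untreated siGl3.

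Lower calls, all without H2O2, lay within genes or between them. One was 795 bp from an inner start of PPP2R1A, the scaffold subunit of the phosphatase PP2A, at percentiles of 7.18 in siOrc6 with H2O2, 47.8 in siGl3 with H2O2 and 16.7 in untreated siGl3. The first start of PPP2R1A ranked between 99.0 and 99.2 in all 4 lists. A site in ZNF444 (56158867 to 56159718) ranked at 77.5 in siOrc6 with H2O2, 85.1 in siGl3 with H2O2 and 39.8 in untreated siGl3. Neither was listed in untreated siOrc6. A weak site in ZNF865 (13.0 percentile) was in untreated siGl3 only. The site at 56875441 to 56876071 ranked at 37.8 in untreated siOrc6 and 63.9 in untreated siGl3.

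**Figure D4:**
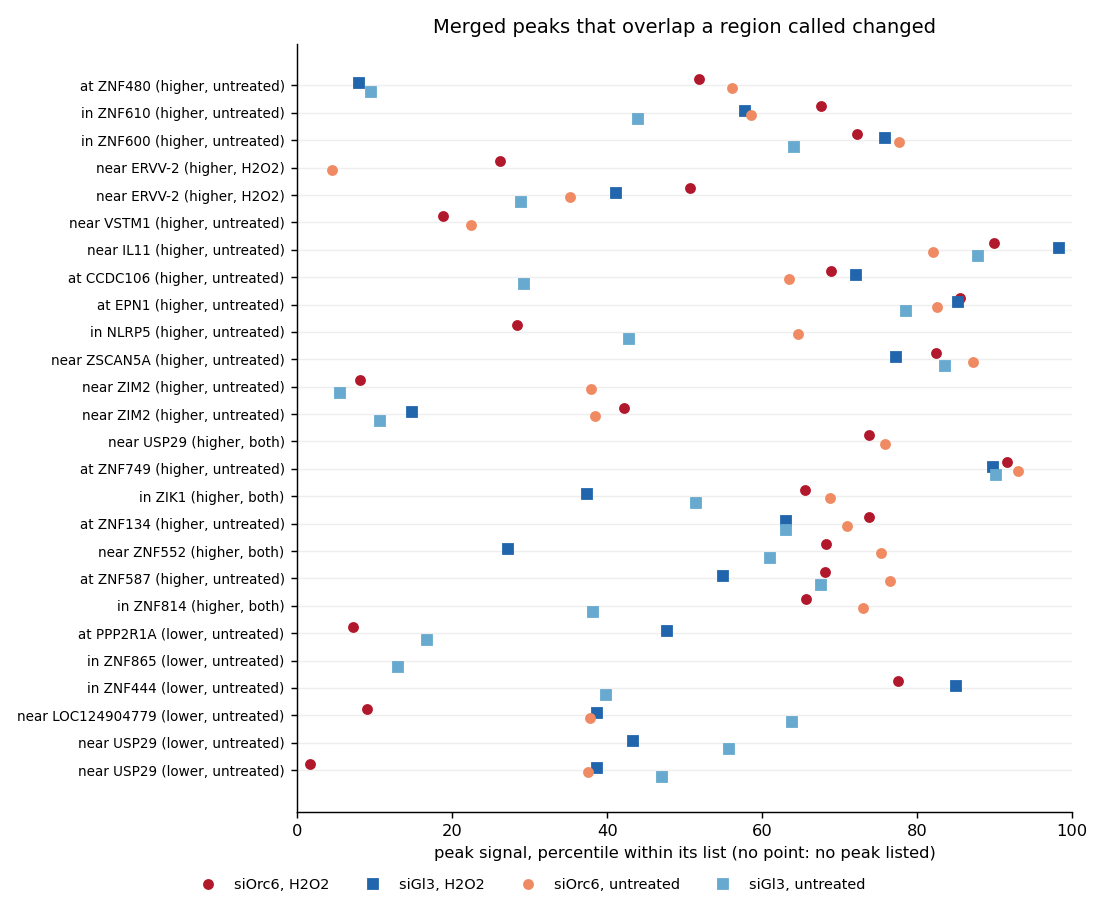
Percentile of peak signal within its own list (x axis) of the 26 merged peaks that overlap a region called changed (y axis, with the call), by condition; a missing point is a condition with no peak. All 18 peaks called higher without H2O2 have a point for untreated siOrc6 and 16 of them one for untreated siGl3; the calls chose these peaks, so the order of the points restates them.

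Presence in single lists was compared for each pair of conditions. Without H2O2, 24 peaks were in siOrc6 and not in siGl3 (6.59%, against 8.51% of all merged peaks) and 22 in siGl3 and not in siOrc6 (6.04%, against 12% of all). With H2O2 these numbers were 31 (8.52%, against 6.55% of all) and 29 (7.97%, against 10.4% of all). Within siOrc6, 33 peaks were listed with H2O2 and not without it (9.07%, against 5.16% of all), and 28 the other way (7.69%, against 13.9% of all). Within siGl3 these numbers were 32 (8.79%, against 6.18% of all) and 27 (7.42%, against 14.5% of all). On the rest of chromosome 19 the shares were 9.66% listed with H2O2 only and 8.06% untreated only within siOrc6, and 9.97% with H2O2 only and 9.08% untreated only within siGl3. In the window, as on the rest of its chromosome, the directions were nearer to balance than over all merged peaks.

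Presence shared by both siRNAs was rarer. Peaks in both H2O2 lists and in no untreated list numbered 11 (3.02%), against 1.45% of all merged peaks but 3.65% on the rest of chromosome 19. Peaks in both untreated lists only also numbered 11 (3.02%), against 4.86% of all and 2.46% on the rest of chromosome 19. The window thus matched its chromosome more closely than the whole set. The 11 peaks with H2O2 only lay by the starts of the brain kinase gene BRSK1, of SBK3 and of the cardiac troponin gene TNNI3, by SBK2, in CACNG7 (2 peaks), IL11 and ZNF264, and between genes (3 peaks). The strongest, at SBK3, ranked at 40.8 in siOrc6 with H2O2 and 59.0 in siGl3 with H2O2. Some of these genes had other peaks close by. Within 1 kb of the start of TNNI3, untreated siGl3 had a peak of 938 bp at the 75.7 percentile. SBK2 had a peak within 1 kb of an annotated end in all 4 lists. Of the genes named for the 11 peaks, all but IL11 and CACNG7 were named after their values were seen.

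**Figure D5:**
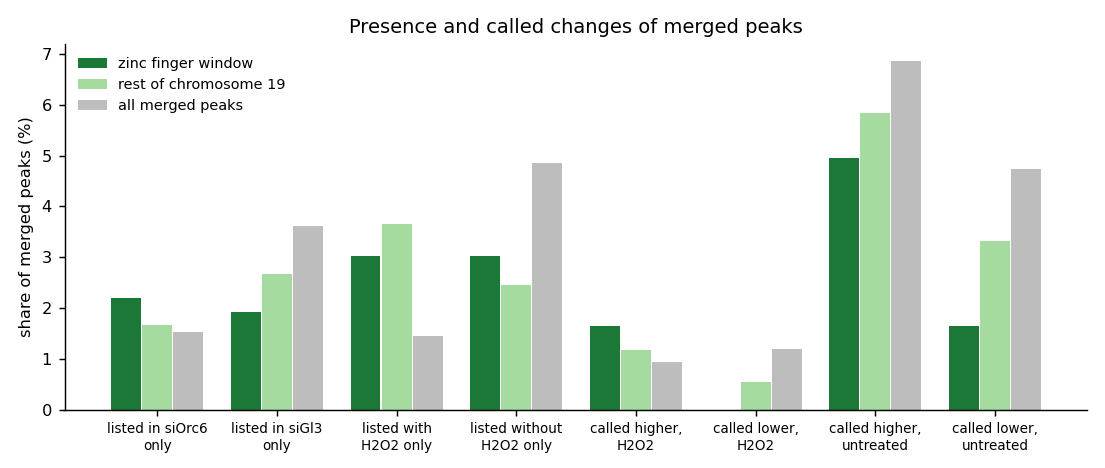
Share of merged peaks in percent (y axis) with each pattern of presence or call (x axis) in the zinc finger window, on the rest of chromosome 19 and over all merged peaks. The window has 0 peaks called lower with H2O2, against 0.548% on the rest of chromosome 19. Of its peaks 3.02% are listed with H2O2 only, against 1.45% of all merged peaks and 3.65% on the rest of chromosome 19.

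The strongest and widest regions of the window were mostly at other genes. The highest percentile, between 99.98 and 99.99 in the 4 lists, belonged to an annotated end shared by PEG3 and ZIM2 (56837047 to 56841108). Neither gene has a listed start or strand here, so this end was not counted among starts. The region was 3943 bp wide in siOrc6 with H2O2, 3897 bp in siGl3 with H2O2, 4051 bp in untreated siOrc6 and 3898 bp in untreated siGl3. PEG3 is expressed from the paternal allele, and these data do not separate alleles. MYADM, a membrane protein gene, had the widest region, 4803 bp. CACNG8, a subunit gene of brain channels and glutamate receptors, the histone methyltransferase gene KMT5C, the splicing factor gene U2AF2, FIZ1 with ZNF524, IL11 and PPP2R1A followed by rank. TMEM238 with RPL28 and PPP1R12C followed by width. PPP1R12C, whose first intron is the AAVS1 site used for transgenes, ranked between 91.8 and 96.8. None of these sites overlapped a region called changed.

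Leukocyte receptor genes, which mark blood cells, had a peak at 0 of 26 starts or ends. A peak inside FPR3 (51799088 to 51800118), 3931 bp from its nearer end, was in all 4 lists at percentiles between 88.1 and 91.0. Of 9 NLRP genes none had a peak in all 4 lists, and NLRP4 and NLRP11 shared 1 that was missing in untreated siGl3. These zeros are not read here as closed chromatin, which was not tested. A stretch of 954.162 kb (54137751 to 55091912) held no peak in any list. It contains 37 coding genes, among them 22 leukocyte receptor genes and 6 of 20 broadly used genes. RPS9, a ribosomal protein gene needed in every cell (54200858 to 54207647), is one of them. Outside the stretch, 11 of 14 broadly used genes had a peak at their starts in all 4 lists. The 4 leukocyte receptor genes outside it had none at a start or end. Of these 4, VSTM1 and TARM1 lay in a further empty stretch just before the long one (54025036 to 54096618). OSCAR followed, and then NDUFA3, TFPT and PRPF31, the 3 broadly used genes with no peak. The peaks listed between these stretches ranked between 10.6 and 20.4. Whether the genes there were closed was not tested.

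Of 13682 stretches of at least 50 kb without a peak, this one ranked second by coding genes inside. The first was at chromosome 6, 28943732 to 33481283, with 168 coding genes, and the third at chromosome 17, 36921727 to 38852821, with 28. The assembly holds alternate versions of the leukocyte receptor region and of the chromosome 6 region. The lists had 1, 2, 1 and 1 peaks on alternate sequences of chromosome 19 and 11, 10, 9 and 7 on those of chromosome 6, for siOrc6 with H2O2, siGl3 with H2O2, untreated siOrc6 and untreated siGl3. The part of read placement in these empty stretches was not tested.

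The placental miRNA cluster C19MC, 43 hairpins over 95.752 kb, had 2 merged peaks, both in all 4 lists, and 1 hairpin, MIR521-1, within 1 kb of a peak in 3 lists (not in siOrc6 with H2O2). The hairpins of miR-371 to miR-373, known from pluripotent cells, had 0 of 4 near a peak.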

How the data were processed

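ATAC-seq peaks were analysed for 8 U2OS libraries in 4 conditions. The authors deposited 1 peak list per condition. Their caller gave each peak a display score, not used here, in the lists as deposited. The peak signal is also the value of the authors' caller, as deposited. The −log10 p and −log10 q values, as deposited, were not used. The authors also deposited 4 lists of regions called higher or lower in siOrc6. The submitters' processing notes name the build hg38 and the tools Genrich, edgeR, deepTools, SAMtools, Picard, Bowtie2 and bcl2fastq 2.20. Roles, thresholds, shifting of cut sites, duplicates and the placement of reads that match near-identical zinc finger genes are not given in the sources used here. Depth is unknown, since no file gives counts.

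Peaks of chromosomes 1 to 22 and X that overlapped or touched were merged, and overlap meant at least 1 bp. Where a condition had several peaks in a merged peak, widths were summed. Each list also held 147 to 168 peaks on further sequences, used only where alternate sequences are described. Genes, starts and promoters came from RefSeq tables of GRCh38.p14 (169 of 208 coding genes of the window had a start). With 1 list per condition and no value per library, no test over replicates was possible, and batch cannot be separated. Shares over all merged peaks stand beside each count. Named genes were those with a changed region within 1 kb of a start, those at the 8 merged peaks of highest rank and the 8 widest, zinc finger genes with a start peak in some lists only, and 10 fixed genes; 1 of the widest regions is not reported here. Other names were chosen after their values were seen. Members and lists were chosen with earlier results of these data known. Merging and overlap were checked on simulated intervals. Python 3.11.15, numpy 2.4.6, pandas 2.3.3 and matplotlib 3.10.9 were used.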

Additional observations from a re-analysis of the deposited data

How the results depend on the processing

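Keeping only peaks at or above the 50.0 percentile of each list by peak signal, which by its construction leaves fewer peaks, gave 215 merged peaks in the window, 164 of them in all 4 lists (76.3%, against 65.5% of all merged peaks so kept), 4 listed without H2O2 only (1.86%, against 5.13%) and 3 at regions called lower in untreated siOrc6 (1.40%, against 4.34%). The other 22 recomputed values stayed within 1.5 times the reported ones. Joining peaks up to 500 bp apart gave 336 merged peaks, 246 of them in all 4 lists. The count of 73 zinc finger starts was 73 within 3 kb or at the start itself, 69 at or above that percentile and 84 with annotated ends of genes that have no listed start. This last alternative, the one without genes of the longest empty stretch and the letters TNCATTNCC were chosen after seeing the data. That stretch holds 0 zinc finger genes, so leaving out its genes, counted among the 22 values, could not change the count of 73. No paired analysis was possible because each condition had 1 list for both libraries, and for the same reason no library could be left out. Weak peaks depend most on depth, which is unknown.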
